A study of Mus musculus with 10 samples.

Results

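Troponin gene clusters of the mouse were described by the binding of 2 muscle transcription factors, MyoD and Myf5, and by histone H4 acetylation (H4Ac). There were 2 clusters, taken as windows of the mouse build mm9: the fast window on chromosome 7 at 149600000 to 149720000, named for the fast skeletal genes Tnni2 and Tnnt3, and the slow and cardiac window on chromosome 1 at 137655000 to 137770000, named for Tnni1 and Tnnt2. Every row of the 7 deposited peak lists that overlapped a window was a member, whatever its coverage. The windows themselves were chosen with earlier results of these data known. This gave 112 peaks of 241128 in all, 61 in the fast window and 51 in the slow and cardiac window.

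The cells were mouse embryonic fibroblasts of the genotype MyoD-/-; Myf5-/-, which the labels call M&M MEF, transduced with MyoD, with Myf5 or, as the negative control, with lentiviral GFP. All 3 populations were moved to differentiation medium with insulin and transferrin 24 h after infection and harvested 20 h later, and the deletion of both endogenous genes is common to all 3. The promoter that drives each transgene is not named in the labels. Factor chromatin was fixed with formaldehyde for 11 min, whereas H4Ac chromatin was native and cut with micrococcal nuclease for 18 min. There was 1 list each for MyoD in cells with MyoD, Myf5 in cells with Myf5, H4Ac in cells with MyoD, with Myf5 and with GFP, and the mock precipitations with the MyoD and the Myf5 antibody in cells with GFP. Each factor list names 2 replicates together. With 1 list a group there is no replicate error and no test across replicates, and depth is unknown from these lists. Marker levels of the cells were not measured in these lists.

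Troponin is the calcium switch of striated muscle. Its inhibitory subunit (troponin I) holds back the contact of actin and myosin, its tropomyosin-binding subunit (troponin T) anchors the complex on the thin filament, and its calcium-binding subunit (troponin C) releases the block. Genes of troponin I and troponin T stand next to each other in pairs in mammalian genomes. Tnni2 encodes the troponin I and Tnnt3 the troponin T of fast skeletal fibres. Tnni1 encodes the troponin I of slow skeletal fibres, which the embryonic heart also uses, and Tnnt2 the troponin T of the heart, which embryonic skeletal muscle also makes for a time. Both factors belong to the basic helix-loop-helix family, bind E-boxes, short sequences of the form CANNTG, and direct cells to skeletal muscle. H4Ac marks open, active chromatin. The genes of troponin C were not analysed here.

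In the RefSeq annotation of GRCm38, Tnni2 is followed by Lsp1, Prr33 and Tnnt3, with Syt8 before and Mrpl23 after. Lsp1 encodes an actin-binding protein first known from leukocytes, Syt8 a synaptotagmin and Mrpl23 a protein of the mitochondrial ribosome. Tnni1 is followed by Lad1, which encodes a protein of basement membranes, and Tnnt2, with Phlda3 before and Pkp1, a desmosome gene, after. That annotation is of another build than the peaks, so no peak was assigned to 1 of these genes. A peak in a window may belong to any of them.

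RefSeq promoter sequences were matched for 2 of the 4 genes, Tnni1 and Tnnt2. Both are shown because E-boxes are what the 2 factors bind and both genes lie in the window with the more factor peaks. The 250 bases before the first listed start of each gene follow, on the + strand of GRCm38.p6, with every CANNTG in capitals. Tnni1 is at chr1:135799171-135799420 and Tnnt2 at chr1:135836084-135836333, positions that cannot be set beside the mm9 positions of the peaks.
Tnni1: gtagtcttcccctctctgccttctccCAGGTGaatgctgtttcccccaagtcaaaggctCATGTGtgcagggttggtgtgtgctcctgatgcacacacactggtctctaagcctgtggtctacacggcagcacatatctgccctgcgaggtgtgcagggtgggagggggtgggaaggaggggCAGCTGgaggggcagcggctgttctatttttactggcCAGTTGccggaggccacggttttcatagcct
Tnnt2: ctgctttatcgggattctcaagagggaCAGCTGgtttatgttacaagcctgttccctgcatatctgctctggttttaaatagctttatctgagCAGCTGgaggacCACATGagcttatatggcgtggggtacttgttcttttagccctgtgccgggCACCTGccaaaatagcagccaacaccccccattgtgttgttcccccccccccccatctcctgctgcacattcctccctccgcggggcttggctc
RefSeq lists a second start for each gene, and the 250 bases before those hold fewer matches, 2 for Tnni1 and 1 for Tnnt2, against a median of 1 over all promoter stretches. Each of the 2 printed stretches holds 4 matches to CANNTG, a motif that reads the same way on both strands. At least 4 matches are found in 3.84% of the 32851 RefSeq mouse promoter stretches of that length. The Tnni1 stretch holds 1 CAGCTG and 1 CAGGTG, and the Tnnt2 stretch 2 CAGCTG and 1 CACCTG. The motif CAGCTG, which is also a CANNTG, occurs at least once in 13.0% of those stretches and at least 2 times in 1.26%. CACCTG, on either strand, occurs in 17.2%. These are matches of letters, and whether either stretch lies under a peak was not determined.

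The slow and cardiac window held more binding sites of both factors, and the fast window more acetylated histone. MyoD had 9 peaks in the fast window and 17 in the slow and cardiac window, which is 7.50 and 14.8 peaks per 100 kb. Myf5 had 11 and 21 peaks, or 9.17 and 18.3 per 100 kb. The density of factor peaks in the fast window was thus 0.507 (MyoD) and 0.502 (Myf5) times that in the slow and cardiac window. For H4Ac the order was turned round. Cells with MyoD had 16 H4Ac peaks in the fast window and 4 in the slow and cardiac window, cells with Myf5 13 and 5, and cells with GFP 12 and 4. Per 100 kb, the fast window had 3.83, 2.49 and 2.88 times as many H4Ac peaks in cells with MyoD, Myf5 and GFP. With peaks of a list closer than 500 bp joined, the counts were 7 and 3, 5 and 3, and 6 and 3, and these ratios were 2.24, 1.60 and 1.92. Neither mock list had a peak in either window, nor did 98.2% (MyoD antibody) and 98.3% (Myf5 antibody) of tiles of 120 kb and 98.3% of tiles of 115 kb for both.

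Both windows were dense in MyoD peaks beside the genome as a whole, where the list averages 1.71 peaks per 100 kb. At least 9 MyoD peaks were found in 3.83% of 21446 consecutive tiles of 120 kb, and at least 17 in 0.0938% of 22381 tiles of 115 kb. For Myf5, which averages 3.56 peaks per 100 kb, at least 11 were found in 13% of the longer tiles and at least 21 in 0.652% of the shorter ones. The slow and cardiac window was therefore among the few tiles with the most MyoD peaks. The Myf5 count of the fast window was the least rare of these counts, though above the tile median of 3. For H4Ac, the counts of the fast window were reached by 0.592% of tiles in cells with MyoD, 0.746% with Myf5 and 1.04% with GFP. Those of the slow and cardiac window were reached by 17.1%, 10% and 14.2%. Tiles include regions with few genes, and no allowance for gene density was made.

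**Figure D1:**
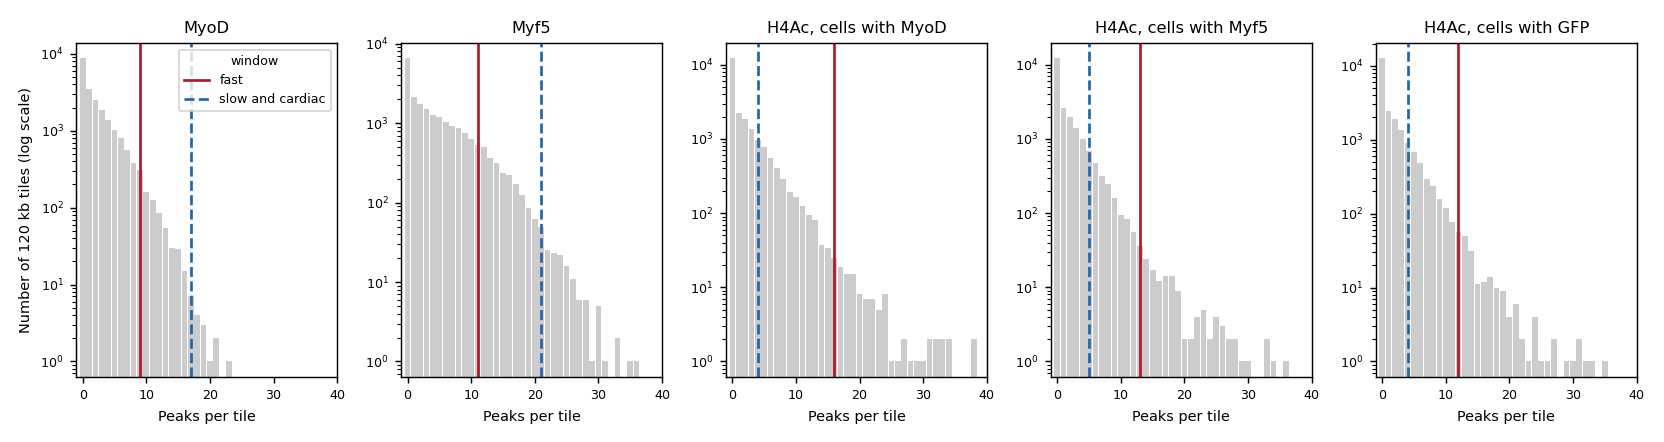
Number of peaks in each tile of 120 kb of the genome (grey bars, number of tiles on a log scale, axis ended at 40 peaks) for the 5 lists, with the count of the fast window (red line) and of the slow and cardiac window of 115 kb (blue broken line). For MyoD and Myf5 the fast window (9 and 11 peaks) lies left of the slow and cardiac window (17 and 21), and for the 3 H4Ac lists it lies right of it.

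The slow and cardiac window had fewer H4Ac peaks than the fast window. Per 100 kb it still had 2.49, 3.58 and 2.95 times the average of the list in cells with MyoD, Myf5 and GFP. Such counts were not unusual for a tile with so many factor peaks. The 21 tiles of 115 kb with at least 17 MyoD peaks had a median of 7 H4Ac peaks in cells with MyoD, 5 with Myf5 and 5 with GFP, against 4, 5 and 4 in the slow and cardiac window. Of those tiles, 7 had 4 or fewer in cells with GFP. The fast window was the less common case. Of 821 tiles of 120 kb with at least 9 MyoD peaks, the median was 5, 4 and 4 H4Ac peaks in cells with MyoD, Myf5 and GFP, and 6.33%, 5.24% and 9.62% reached the 16, 13 and 12 of the fast window.

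The strongest factor binding of the fast window, on chromosome 7, was at 1 place in both lists. The MyoD peak at 149685848 to 149686777 had a maximum coverage of 177 reads, which ranks 3211 of 45015 in its list. No scaling of coverage is stated, so reads are ranked within a list and not compared between lists. A second MyoD peak lay just before it, at 149684466 to 149685584, with a coverage of 76 (rank 12683). Both overlapped a single Myf5 peak of 2486 bp at 149684189 to 149686674, with a coverage of 350 (rank 4139 of 93787). No other site of the window had a higher coverage in either list.

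The next strongest site lay nearest to the left end of the window. Its MyoD peak at 149615888 to 149616850 had a coverage of 116 (rank 6768), and its Myf5 peak at 149615548 to 149616894 a coverage of 293 (rank 5632). The MyoD peak at 149627925 to 149628474 came after it, with a coverage of 103 (rank 8134) and a Myf5 partner at 149627402 to 149628399 of coverage 132 (rank 17930). These sites were all in the stronger part of both lists.

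The other 5 MyoD peaks of the fast window were weaker. That at 149667462 to 149668120 had a coverage of 72 (rank 13666) and a Myf5 partner of coverage 73 (rank 34817). The peak at 149672958 to 149673555 had a coverage of 50 (rank 21855) and a partner of 62 (rank 41335). Within the own list, these sites stood at the 69.6th and 51.5th percentile for MyoD and at the 62.9th and 55.9th for Myf5. The lists differ in length, so these percentiles do not give the order of the factors. Ranked among overlapping pairs, as described below, both sites stood higher for MyoD, by 42.0 and 31.1 points. The peak at 149707243 to 149707921 had a coverage of 39 (rank 29623) and a partner of 92 (rank 27144). At 149647919 to 149648952 the MyoD coverage was 33 (rank 36189) and that of Myf5 104 (rank 23702). The weakest, at 149642973 to 149643765, had a MyoD coverage of 28, just above its cutoff of 27, and a Myf5 coverage of 49 (rank 52635). In these last 3 pairs Myf5 had the higher percentile, both within its own list and among overlapping pairs. Of the 9 peaks of MyoD, 6 were above the median coverage of their list, 49 reads, as were 49.8% of the list by construction. Of the 11 Myf5 peaks, 8 were above theirs of 55 reads (49.9% of the list).

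**Figure D2:**
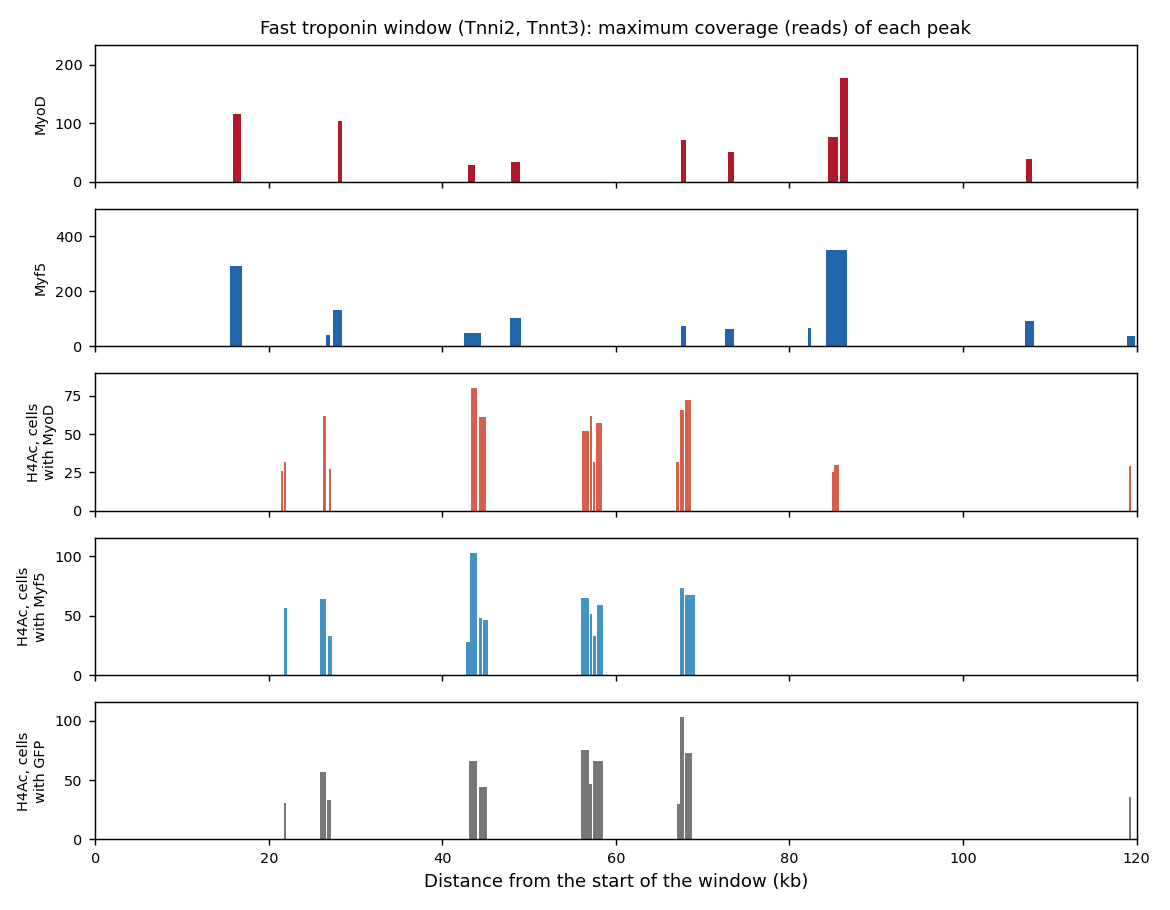
Maximum coverage in reads (height) of every MyoD, Myf5 and H4Ac peak in the fast window, by distance from the start of the window in kb; bars have the width of the peak, drawn at least 0.25 kb wide, and each panel has its own scale. MyoD and Myf5 are strongest at the same place (coverage 177 and 350), beside H4Ac called in cells with MyoD only, while the strongest H4Ac of all 3 populations lies to the left of it.

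The slow and cardiac window had its strongest MyoD peak at 137730491 to 137731406 of chromosome 1. Its coverage was 209 (rank 2278 of 45015). Its Myf5 partner at 137729978 to 137731476 had a coverage of 342 (rank 4318 of 93787). A second site followed next to it, with a MyoD peak at 137732221 to 137732897 of coverage 119 (rank 6501) and a Myf5 peak at 137731911 to 137733363 of coverage 232 (rank 8323). These neighbours form the strongest group of MyoD binding in the window.

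The strongest Myf5 peak was elsewhere, at 137659802 to 137661357 near the left end, with a coverage of 446 (rank 2569). Its MyoD partner at 137659947 to 137660656 had a coverage of 127 (rank 5799). The peak at 137691187 to 137691935 had 115 reads for MyoD (rank 6857) and 139 for Myf5 (rank 16828). The site at 137709883 to 137710804 had 97 for MyoD (rank 8915) and 222 for Myf5 (rank 8939), which is the 80.2nd percentile of the MyoD list and the 90.5th of the Myf5 list. Those lists differ in length, and ranked among overlapping pairs, as described below, the site stood 0.919 points higher for MyoD. The last of the 6 strongest, at 137717947 to 137719071, had 81 for MyoD (rank 11583) and 73 for Myf5 (rank 34817). These 6 MyoD peaks lay between 5.30 and 77.6 kb from the start of the window, and the 5 MyoD peaks to their right had coverages of 36 to 56.

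The other 11 MyoD peaks of the slow and cardiac window had coverages of 31 to 77. Of all 17, 10 were above the list median, and of 21 Myf5 peaks 13. The median place in the own list was the 69.6th percentile for MyoD in the fast window and the 54.9th in the slow and cardiac window. For Myf5 it was the 62.9th and the 69.6th. The fast window was therefore not the one with weaker sites in both lists. Among the strongest 10% of their list were 1 of 9 MyoD peaks of the fast window and 1 of 17 of the slow and cardiac window (10% of the list), and 2 of 11 and 4 of 21 Myf5 peaks (10.1% of the list).

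**Figure D3:**
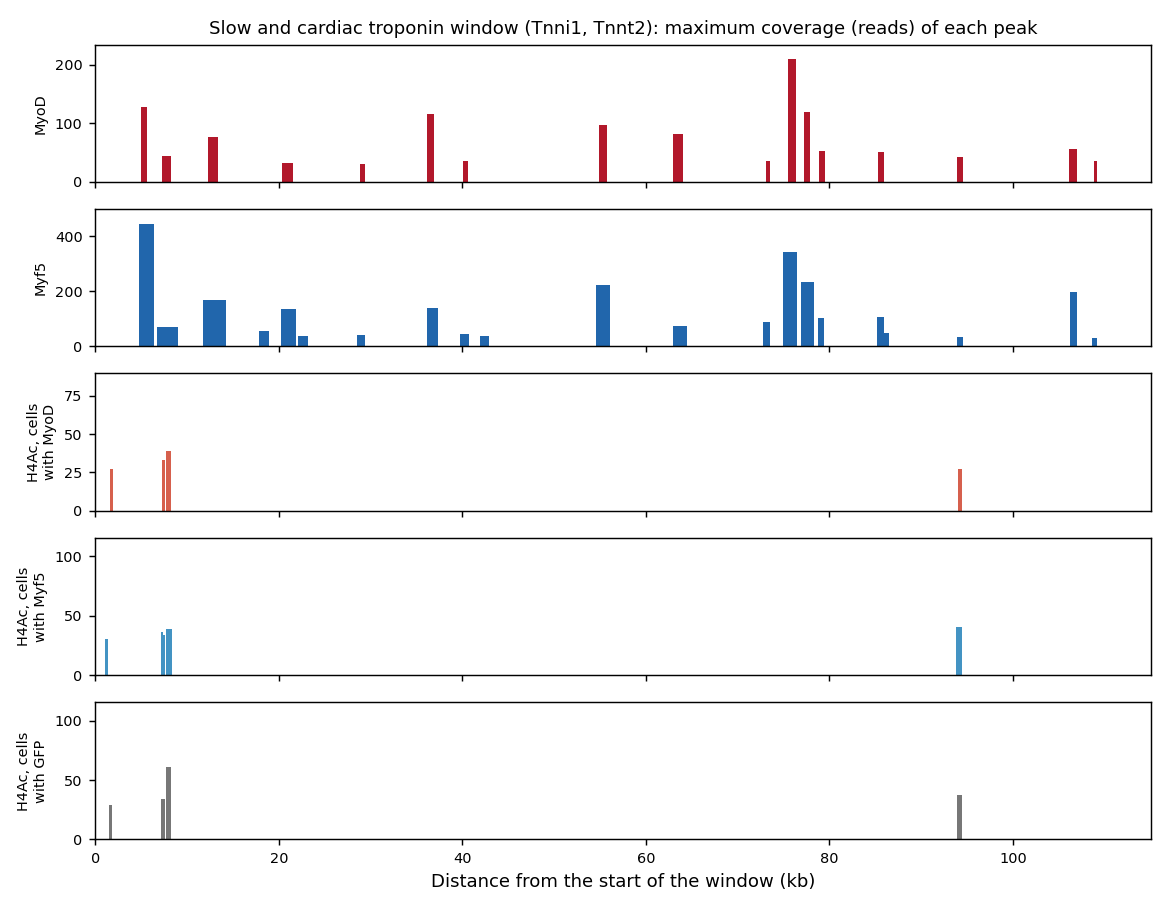
Maximum coverage in reads (height) of every MyoD, Myf5 and H4Ac peak in the slow and cardiac window, by distance from the start of the window in kb, drawn as for the fast window with the same height scale per list. Factor peaks run along the whole window, with the strongest MyoD peak (209) in the right part and the strongest Myf5 peak (446) near the left end, while H4Ac was called at 3 places only.

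Every MyoD peak of both windows overlapped a Myf5 peak. This held for 9 of 9 in the fast window (66.4% to 100%, exact 95% Clopper-Pearson interval) and 17 of 17 in the slow and cardiac window (80.5% to 100%), against 97.5% of the whole MyoD list. In the other direction, 8 of 11 Myf5 peaks of the fast window (39.0% to 94.0%) and 17 of 21 of the slow and cardiac window (58.1% to 94.6%) overlapped a MyoD peak, against 45.9% of the Myf5 list. With centres required to lie within 100 bp, 44.4% of the MyoD peaks of the fast window and 52.9% of those of the slow and cardiac window had a Myf5 partner. The Myf5 intervals of both windows reach above the share of the list. Only that of the slow and cardiac window lies above it as a whole. No allowance was made for the density of MyoD peaks, on which this share depends. That density was 7.50 per 100 kb in the fast window and 14.8 in the slow and cardiac window, against 1.71 over the list. The intervals take in counting error alone, and peaks that lie side by side are not independent of each other.

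The Myf5 peaks without a MyoD peak were of low to middle strength. In the fast window they lay at 149682081 to 149682531 (coverage 66, rank 38702), 149626580 to 149627075 (39) and 149718941 to 149719791 (36). The first was above the list median of 55. In the slow and cardiac window they lay at 137672901 to 137673951 (55), 137740993 to 137741537 (47), 137696905 to 137697964 (37) and 137677123 to 137678189 (36), none above it. No MyoD peak of either window was without a partner.

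To compare places across lists of unequal length, the coverage of each peak was ranked among the 44305 overlapping pairs of the genome, and the Myf5 percentile was subtracted from the MyoD percentile. The median difference was -2.01 percentile points over the 9 pairs of the fast window. It was 5.21 over the 17 pairs of the slow and cardiac window and 0.37 over all pairs. In the fast window, the Myf5 peak at 149684189 to 149686674 was counted with each of its MyoD partners, at -19.2 and 2.63 points. These pairs are not independent. The median without this repeat was not determined, so the sign in the fast window gives no order of the factors. The middle 50% of all pairs lay between -9.17 and 9.82. Of the pairs in the fast window, 4 of 9 stood higher for MyoD by this ranking, and in the slow and cardiac window 13 of 17, against 51.8% of all pairs. As many as 4 of 9 and 8 of 17 differences fell within the middle 50% of all pairs.

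In the fast window the largest difference in favour of MyoD was at 149667462, with 42.0 points, a value reached by 1.52% of all pairs. The largest in favour of Myf5 was at 149647919, with -28.5 points, where 6.24% of all pairs were as low. The extremes of the slow and cardiac window were wider. The pair at 137717947 stood 46.8 points higher for MyoD, a value reached by 0.930% of all pairs, and that at 137675319 stood at -44.5 points, among the lowest of all pairs. That site had 32 reads for MyoD and 134 for Myf5. The strongest site of each window differed little, by 2.63 points at 149685848 and by 5.21 points at 137730491.

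**Figure D4:**
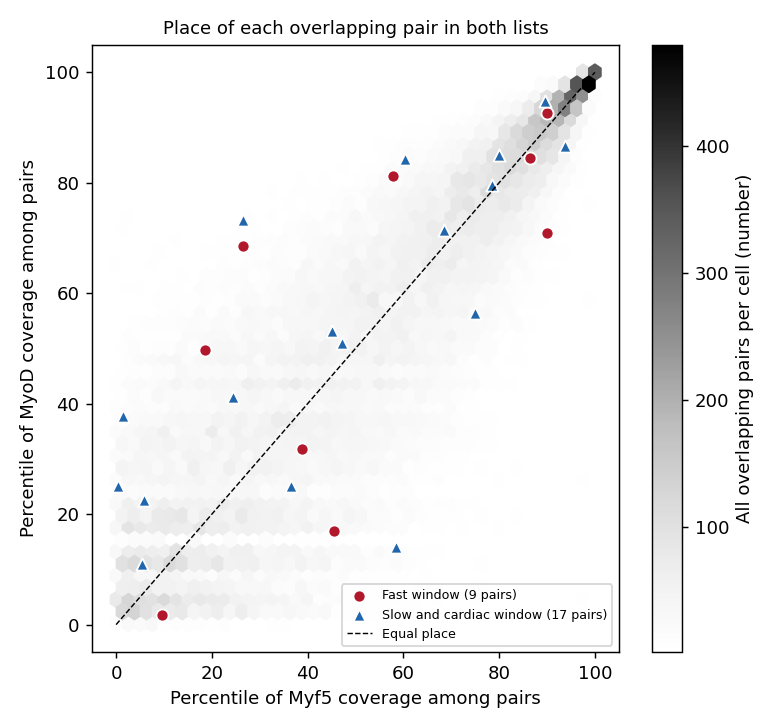
Percentile of the MyoD coverage (y axis) against that of the Myf5 coverage (x axis) among all 44305 overlapping pairs of peaks (grey cells, darker for more pairs), with the 9 pairs of the fast window (red circles) and the 17 pairs of the slow and cardiac window (blue triangles). In the slow and cardiac window 13 of 17 pairs lie above the broken line of equal place, and in the fast window 4 of 9. The fast window pairs at 149684466 and 149685848 share the same Myf5 peak.

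Joined across the 3 populations where fewer than 500 bp lay between peaks, H4Ac formed 7 stretches in the fast window and 3 in the slow and cardiac window. Cells with MyoD had an H4Ac peak in 7, cells with Myf5 in 5 and cells with GFP in 6 of the 7 stretches of the fast window. Each of the 3 populations had all 3 stretches of the slow and cardiac window. In the leftmost of these, the peak of cells with Myf5 overlapped no peak of the other populations and was only joined to them as lying within 500 bp. Of all 30176 stretches of the genome, 48.8% were called in the 3 populations, 11.9% in cells with MyoD only and 6.77% in cells with MyoD and with GFP but not with Myf5. The rest were called in cells with Myf5 only (11.0%), GFP only (8.59%), MyoD and Myf5 (8.18%) or Myf5 and GFP (4.74%). Most H4Ac at both clusters was thus also called in cells with GFP, which is the common case. Over the whole lists, 69.3% of H4Ac peaks of cells with MyoD and 68.1% of those with Myf5 overlapped one of cells with GFP.

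The strong stretches of the fast window lay between its 2 strongest factor sites. Stretch 3, at 149642779 to 149645252, reached an H4Ac coverage of 80 in cells with MyoD, 103 with Myf5 and 66 with GFP, at the 93.9th, 96.0th and 85.7th percentile of the own list. Stretch 5, at 149666921 to 149669085, reached 72, 73 and 103, at the 92.2nd, 90.1st and 94.9th percentile. Stretch 4, at 149655941 to 149658469, reached 62, 65 and 75, and stretch 2, at 149625871 to 149627271, reached 62, 64 and 57. These 4 stretches stood at the 80.6th percentile or higher in all 3 lists. Each of these values is that of the strongest of 2 to 4 peaks, ranked among single peaks, and no ranking among stretches was made. Stretch 1, at 149621427 to 149622082, was weaker, with 32, 56 and 31, or the 58.2nd, 81.6th and 38.5th percentile.

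Differences between populations in these places were set beside the 14719 stretches of the genome called in all 3. There, the percentile in cells with MyoD minus that in cells with GFP had a median of 1.72 points and a middle 50% from -4.23 to 11.95. For cells with Myf5 minus cells with GFP these were 1.87 points and -7.20 to 13.8. Of the 5 stretches of the fast window called in all 3, only stretch 1 lay outside, at 19.7 points with MyoD and 43.1 points with Myf5. Of the slow and cardiac window, 2 of 3 lay below the middle 50% with MyoD, at -11.6 and -13.1 points, and 1 of 3 with Myf5, at -22.0 points. With 1 list per population, none of these has an error.

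Stretch 6 of the fast window was called in cells with MyoD and in no other population. It held 2 H4Ac peaks, at 149684924 to 149685163 (coverage 25) and at 149685181 to 149685654 (coverage 30), and both overlapped the MyoD peak at 149684466 to 149685584 and the strong Myf5 peak. The strongest MyoD peak of the window began 193 bp after them. Among MyoD peaks, 3.71% overlap H4Ac in cells with MyoD and in no other population. The 2 H4Ac peaks were weak, at 1.04 and 1.25 times their cutoff of 24 reads, and 40.4% of that list stood at 1.25 times or lower. The cutoff for the same GC class (50% to 55%) was 29 in cells with Myf5 and 28 in cells with GFP. Depth is unknown, so reads of 1 list cannot be held to the cutoff of another. The coverage in cells with Myf5 and with GFP at this place was not tested.

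Stretch 7, at 149719106 to 149719407, was called in cells with MyoD (coverage 29) and with GFP (36) but not with Myf5. It lay at the Myf5 peak at 149718941 to 149719791, which had no MyoD partner. Both H4Ac peaks were near their cutoffs, at 1.21 and 1.29 times.

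The 3 stretches of the slow and cardiac window stood between the 30.4th and the 83.1st percentile of their lists. The leftmost, at 137656032 to 137656904, reached a coverage of 27 in cells with MyoD, 30 with Myf5 and 29 with GFP and had no factor peak. The next, at 137662184 to 137663415, reached 39, 39 and 61 and lay at a MyoD peak of coverage 44 and a Myf5 peak of coverage 70. The rightmost, at 137748849 to 137749484, reached 27, 40 and 37. It lay at a MyoD peak of coverage 42 (rank 27029) and a Myf5 peak of coverage 33 (rank 79006), both in the weaker part of their list. No H4Ac peak of this window was among the strongest 10% of its list, against 3 of 16 (MyoD), 2 of 13 (Myf5) and 1 of 12 (GFP) in the fast window, where the whole lists have 10.3%, 10.2% and 10.3%.

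**Figure D5:**
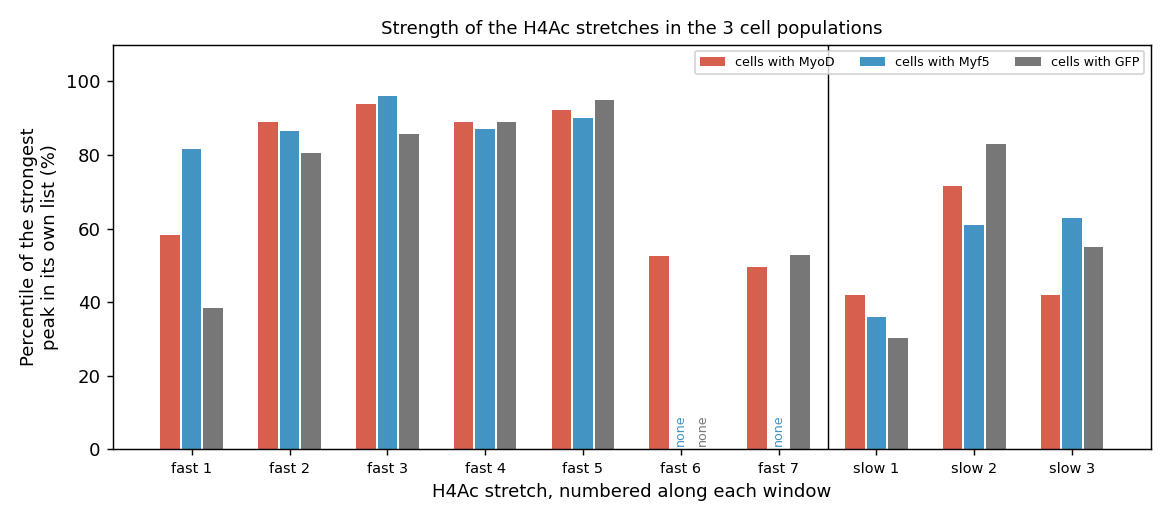
Percentile, in its own list, of the strongest H4Ac peak in each stretch (bars from 0) in cells with MyoD, with Myf5 and with GFP, for the 7 stretches of the fast window (left of the line) and the 3 of the slow and cardiac window. Stretches 2 to 5 of the fast window are high in all 3 populations, stretch 6 was called with MyoD only and stretch 7 was not called with Myf5.

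Between stretches 2 and 3 of the slow and cardiac window lay 85.4 kb without H4Ac in any population. This interval held 12 of the 17 MyoD peaks and 16 of the 21 Myf5 peaks, the strongest MyoD peak among them. The longest such interval of the fast window, between stretches 6 and 7, was 33.5 kb and held 2 MyoD peaks and 1 Myf5 peak. In the slow and cardiac window, 13 of 17 MyoD and 17 of 21 Myf5 peaks lay over 5 kb from any H4Ac peak. In the fast window this held for 1 of 9 and 1 of 11. How common such distances are over the whole factor lists was not determined.

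Counted by factor peaks, 3 of 9 MyoD peaks of the fast window overlapped H4Ac in cells with MyoD (7.49% to 70.1%) and 2 of 17 in the slow and cardiac window (1.46% to 36.4%), against 18.6% of the MyoD list. In cells with Myf5 and in cells with GFP alike, 2 of 9 and 2 of 17 did, against 15.1% and 14.4% of the list. Of Myf5 peaks, 5 of 11 of the fast window overlapped H4Ac in cells with MyoD (16.7% to 76.6%) and 2 of 21 of the slow and cardiac window (1.17% to 30.4%), against 13.6% of the Myf5 list. In cells with Myf5 these were 3 of 11 and 2 of 21 (11.9% of the list), and in cells with GFP 4 of 11 and 2 of 21 (11.6%). The intervals of the 2 windows overlap in every one of these comparisons. Of these 12 shares by population, 1 had an interval wholly above the share of its list, that of Myf5 peaks of the fast window at H4Ac in cells with MyoD. Peaks that lie side by side are not independent, so these intervals are no test. No allowance was made for H4Ac density, which in cells with MyoD was 13.3 peaks per 100 kb in the fast window against 1.40 over the list. With the 3 populations taken as 1, 3 of 9 and 2 of 17 MyoD peaks were at H4Ac (21.6% of the list), and 5 of 11 and 2 of 21 Myf5 peaks (16.5%), the Myf5 interval of the fast window starting at 16.7%.

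The MyoD peaks at H4Ac in the fast window were those at 149642973 and 149667462, with H4Ac in all 3 populations, and that at 149684466, with H4Ac in cells with MyoD. The Myf5 peaks were their partners and those at 149626580, with H4Ac in cells with MyoD, Myf5 and GFP, and at 149718941. Neither of the strongest MyoD peaks, at 149685848 in the fast window and at 137730491 in the slow and cardiac window, overlapped an H4Ac peak. Among the strongest 10% of the MyoD list, where both belong, 42.6% overlap H4Ac in at least 1 population. The nearest H4Ac peak lay 193 bp from the MyoD peak at 149685848 and 17442 bp from that at 137730491. Of the MyoD peaks without H4Ac, the median distance to the nearest H4Ac peak was 3.27 kb in the fast window and 15.95 kb in the slow and cardiac window. The same distance over the whole MyoD list was not determined.

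Counted by H4Ac peaks, a MyoD peak was at 5 of 16 in the fast window and 3 of 4 in the slow and cardiac window in cells with MyoD (31.9% of the list), at 4 of 13 and 4 of 5 with Myf5 (27.2%) and at 3 of 12 and 3 of 4 with GFP (27.4%). A Myf5 peak was at 9 of 16 and 3 of 4 in cells with MyoD (50.3%), at 7 of 13 and 4 of 5 with Myf5 (45.5%) and at 7 of 12 and 3 of 4 with GFP (47%). In the fast window these shares were thus near those of the lists. Of the stretches, 3 of 7 in the fast window and 2 of 3 in the slow and cardiac window held a MyoD peak (30.8% of all stretches), and 5 of 7 and 2 of 3 a Myf5 peak (48.4%). No H4Ac peak in cells with GFP was called for 3 of 16 and 0 of 4 H4Ac peaks of cells with MyoD (30.7% of the list), and for 0 of 13 and 1 of 5 of cells with Myf5 (31.9%).

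Peaks of both clusters shared a high GC content. Of the MyoD peaks, 7 of 9 in the fast window and 13 of 17 in the slow and cardiac window were in the classes above 50% GC, against 16.5% of the list. For Myf5 it was 9 of 11 and 17 of 21, against 14.9%. Of H4Ac peaks, these classes held 13 of 16 and 3 of 4 in cells with MyoD (14.3% of the list), 8 of 13 and 4 of 5 with Myf5 (11.9%) and 9 of 12 and 3 of 4 with GFP (15.6%). In the 2 factor lists and the 3 H4Ac lists, the authors' coverage cutoffs are highest in these classes. Peak width differed more for Myf5, with medians of 1018 bp in the fast window, 1060 bp in the slow and cardiac window and 757 bp in the list. MyoD medians were 793, 710 and 672 bp.

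The control coverage that the authors give for each peak differed between the windows for Myf5. For MyoD it was 2 to 10 reads at the MyoD peaks of the fast window and 2 to 8 in the slow and cardiac window, with a list median of 5. At Myf5 peaks it was 4 to 11 and 7 to 21, with a list median of 11. Above that median were 0 of 11 Myf5 peaks of the fast window and 12 of 21 of the slow and cardiac window. The share of the whole Myf5 list above it was not determined. The part of control coverage in the Myf5 counts was not tested. The highest, 21, was at the Myf5 peak at 137731911, whose coverage was 232.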

How the data were processed

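Chromatin precipitates of MyoD, Myf5 and H4Ac were sequenced by the study. The submitters' processing notes name CASAVA 1.8.2, BWA 0.7.5 and, with no role, the builds mm9 and hg19. The peaks were read as mm9. Not given in the sources used here are the peak caller, how the 2 replicates of a factor list were joined and what served as H4Ac control. Per the file headers, coverage and cutoff (signal) are the authors' maximum reads in a peak and their threshold for its GC class, with no scaling named. The deposited file also holds a p-value by the authors, which was not used.

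Of 10 samples, 7 had a list, and 3 input samples were not used. Peaks overlapped by at least 1 bp. Places are ranks of coverage within a list or, where both factors are compared, among overlapping pairs. Tiles left out the first bases of each chromosome and everything past its last peak. Shares have exact binomial intervals at a level of 0.95. Overlaps were checked on simulated peaks. The windows, members and descriptions were chosen with earlier results of these data known. Peaks were named by a rule: the 6 strongest MyoD peaks of each window with their partners, those at H4Ac, those without a partner above the list median and the widest differences of place. The other peaks given by position were named after their values were seen. Alternatives were other overlap rules, windows, ranks and list lengths. Work was done in Python 3.11.15 with scipy 1.17.1, pandas 2.3.3, numpy 2.4.6 and matplotlib 3.10.9.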

Additional observations from a re-analysis of the deposited data

How the results depend on the processing

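Of 82 values recomputed for 30 results, 67 stayed within 1.5 times of a reported count or within the interval of a reported share or median place. Those intervals are wide at such small counts, so staying within them says little. Only the median differences of place between the factors could change sign. Ranked by coverage over cutoff alone, they were -1.52 in the fast window and 6.10 in the slow and cardiac window, with the signs reported. The median of the fast window was not recomputed with its repeated Myf5 peak held to a single pair. With peaks of a list closer than 500 bp joined, the fast window held 7 H4Ac peaks in cells with MyoD, 5 with Myf5 and 6 with GFP, and the slow and cardiac window 3 with Myf5. With a coverage of at least 1.5 times the cutoff, 8 H4Ac peaks remained in the fast window in cells with MyoD, 10 with Myf5 and 8 with GFP, so that cells with MyoD no longer had the most. In the slow and cardiac window 1, 0 and 1 did with MyoD, Myf5 and GFP. Widening the windows by 20 kb on each side gave 8 H4Ac peaks in the slow and cardiac window with MyoD and 8 with Myf5. The stronger 50% of the MyoD list had 6 peaks in the fast window and 10 in the slow and cardiac window. The 45015 strongest Myf5 peaks had 8 and 13, and overlapped 88.9% and 76.5% of the MyoD peaks. Centres lay within 100 bp for 44.4% and 52.9%. The order of the windows for both factors and for H4Ac was the same under each of these settings. No paired analysis was possible because each group has 1 list. Small counts, unknown depth and single lists limit all comparisons of populations.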

Other observations

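Just beyond the right end of the fast window, cells with MyoD had a further H4Ac peak at 149724417 to 149724586 of chromosome 7. This weak peak had a coverage of 26, at the 37.5th percentile of its list. It lay inside a MyoD peak at 149724079 to 149724671 (coverage 65) and a Myf5 peak at 149724086 to 149724731 (coverage 166). In cells with Myf5 and with GFP, the next H4Ac peak called to the right of the window began at 150193542 and 150193448. The coverage of those cells at 149724417 was not tested. This peak lies outside the window and was named after its values were seen. At the left end of the fast window, the nearest MyoD peak outside it ended at 149556056, 43.9 kb away. To the right of the slow and cardiac window, the next MyoD peak (coverage 32) began 52.3 kb away. The dense MyoD binding there thus ended near the right edge of the window, whereas to its left a MyoD peak (coverage 29) lay 5.08 kb outside.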
